A study of Mus musculus with 8 samples.

Results

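The 45 genes described here are a fixed list of mitosis genes of G2 and M phase, from Cdk1 and its cyclins to the motors and scaffolds of the spindle. They were taken by name, and all 45 were found among the 37991 gene IDs of the count table. RNA came from B-cell-biased lymphoid progenitors of mouse bone marrow. H2afy_KO names 4 pools from H2afy-/- mice and H2afy_WT names 4 pools from H2afy+/+ mice, all aged 5 to 12 weeks. The gene codes for macroH2A1, a histone variant whose splicing under mutant U2AF1 is the subject of the study. Each pool held cells of 2 to 3 mice, enriched for Kit before sorting. Sources used here give neither the deleted part of the H2afy allele nor the strain and sex of the mice.

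A cell that has copied its DNA enters mitosis when Cdk1, bound to a B-type cyclin, becomes active. Aurora and Polo-like kinases then build the spindle, kinetochores tie chromosomes to its microtubules, and a checkpoint holds the cell until all are attached. The anaphase-promoting complex finally marks cyclins for degradation so that the cell can divide. Most of these transcripts are switched on together late in the cell cycle, so their level in a sorted population tracks how many cells are in G2 or M phase. Early B-lineage progenitors alternate between bursts of division and rest for gene rearrangement. In pooled cells, fewer cells in G2 and M phase and less RNA per such cell cannot be told apart.

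The shared timing of such genes is known to run through 2 short promoter elements, the CHR element (TTTGAA or TTTAAA) and the CCAAT box. RefSeq promoters of the GRCm38.p6 build were given for 38 of the 45 genes, and both elements were searched on both strands in the 250 bases before the start. On the opposite strand the first form of the CHR element reads TTCAAA in the printed direction, and the second form reads the same. A CCAAT box on that strand appears as ATTGG. Matches overlapped in 1 place among these promoters. The last 110 bases before the first listed start are shown for 6 genes, with matches in capitals. They were chosen for the lowest fold change (Gtse1), the Cdk1 kinase with both B-type cyclins, a gene of near-equal level (Plk1) and the 1 gene of opposite direction (Anln).
Gtse1 (chr15:85859597-85859706, plus strand): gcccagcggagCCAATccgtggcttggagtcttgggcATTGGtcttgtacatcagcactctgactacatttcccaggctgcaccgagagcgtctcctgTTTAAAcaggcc
Cdk1 (chr10:69352913-69353022, minus strand): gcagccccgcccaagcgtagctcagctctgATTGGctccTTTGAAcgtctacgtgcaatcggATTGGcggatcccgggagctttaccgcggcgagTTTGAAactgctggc
Ccnb1 (chr13:100786487-100786596, minus strand): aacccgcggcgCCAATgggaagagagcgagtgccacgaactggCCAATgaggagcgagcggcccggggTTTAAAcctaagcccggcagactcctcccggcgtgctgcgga
Ccnb2 (chr9:70421555-70421664, minus strand): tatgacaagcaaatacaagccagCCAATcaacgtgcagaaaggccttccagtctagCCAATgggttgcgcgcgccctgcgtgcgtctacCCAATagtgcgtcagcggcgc
Plk1 (chr7:122159325-122159434, plus strand): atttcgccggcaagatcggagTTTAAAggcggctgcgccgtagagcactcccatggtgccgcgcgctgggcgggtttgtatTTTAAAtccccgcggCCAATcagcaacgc
Anln (chr9:22389207-22389316, minus strand): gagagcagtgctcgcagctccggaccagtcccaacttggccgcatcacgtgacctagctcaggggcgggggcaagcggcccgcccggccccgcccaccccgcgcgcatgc

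A CHR match lay in 21 of the 38 promoters (55.3%), against 28.1% of the 27025 genes in the promoter table. CCAAT occurred at least once in 30 of 38 (78.9%; all genes, 37.5%) and at least 2 times in 22 (57.9%; all genes, 11.5%). Both elements stood in 1 promoter in 19 of 38 genes (50.0%; all genes, 10.1%). Cdk1 carried TTTGAA 10 to 15 bases before its start and again 66 to 71 bases before it, whereas Ccnb1, Gtse1 and Plk1 carried TTTAAA. The window of Anln held neither element. A match is a run of letters and was not tested for binding. Genes with a CHR match had a median log2 fold change of -0.28 (21 genes, -0.59 to -0.02), and those without one in the window -0.20 (17 genes, -0.45 to 0.08), so the ranges overlapped over most of their length. With at least 2 CCAAT matches the median was -0.28 (22 genes), and with fewer it was -0.24 (16 genes).

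Pools held 21330088 to 29029765 gene counts, and 13722 genes were tested. Levels are in CPM, read counts divided by library sizes that were scaled by the trimmed mean of M values (TMM). The targeted gene H2afy had 1953, 1744, 1423 and 1517 CPM in H2afy_KO pools 1 to 4, against 2455, 2567, 2063 and 1981 CPM in H2afy_WT pools 1 to 4, and with the deleted part unknown this does not check the labels. All 11 markers of B-lymphoid progenitors were present, with summed levels of 6546 to 8306 CPM in H2afy_KO and 9047 to 11260 CPM in H2afy_WT, so the groups did not overlap. Dntt was the largest part of the sum (means of 4017 and 5663 CPM). The median log2 fold change of the 11 markers was -0.56, with Ly6d and Flt3 in the other direction (0.36 and 0.06). Of the 11, 0 passed the edgeR adjusted test, with 8 lower and 0 higher at an unadjusted p under 0.05 (3.69% and 3.88% of all genes). Rag1, which cuts DNA for antigen receptor rearrangement, passed it with the replicate block (edgeR adjusted p = 0.0467), and DESeq2 called Rag1 and the B-lineage factor Ebf1 lower (adjusted p = 0.0024 and 0.0136). Over all genes, edgeR with the block called 0.0802% lower. DESeq2, which called more genes than edgeR, called 0.517% of all genes lower and 0.343% higher. Markers of other cells were present too: neutrophil and monocyte genes summed to 963 to 4157 and 1418 to 9979 CPM, erythroid and megakaryocyte genes to 11.1 to 94.6 and 28.2 to 311 CPM, and T cell genes to 267 to 448 and 386 to 407 CPM. Lck made up most of the T cell sum (means of 313 and 357 CPM), while the defining genes Cd3e, Cd3d and Cd3g averaged 0.0581 to 0.81 CPM and Cd8a and Cd4 1.80 to 12.3 CPM. Median log2 fold changes were -0.74 for neutrophil and monocyte genes (9 of 11 negative) and -1.27 for erythroid and megakaryocyte genes (8 of 9 tested). For T cell genes the median was 0.51 (2 of 6 tested negative), and 0 genes of these lists passed the edgeR adjusted test. DESeq2 called Pf4 lower (adjusted p = 0.0071, means of 0.687 and 4.97 CPM) and Zap70 higher (adjusted p = 0.0355, means of 5.42 and 2.1 CPM). None of the markers of these lists or of plasma cells was at 0 in all pools. The pools differed widely in immunoglobulin counts, which took 0.403%, 10.1%, 39.4% and 33.7% of all counts in H2afy_KO pools 1 to 4, against 3.52%, 1.01%, 19.7% and 13.0% in H2afy_WT pools 1 to 4. Plasma cell markers summed to 3268 to 438150 CPM in H2afy_KO and 7097 to 155490 CPM in H2afy_WT. Most of this sum was Ighm and Igkc, which the immunoglobulin share already counts. Their means were 138480 and 61946 CPM in H2afy_KO, and 44308 and 22692 CPM in H2afy_WT. All 10 plasma cell markers were higher on average in H2afy_KO (median log2 fold change 1.34). Of these, 0 passed the edgeR adjusted test, with 1 higher at an unadjusted p under 0.05 (3.88% of all genes). DESeq2 called 1 of them, Sdc1, higher (adjusted p = 0.0493). The part of these cells in the results below was not tested beyond the immunoglobulin share.

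All 45 mitosis genes were expressed in both genotypes. Their summed level was 7618, 8015, 5607 and 6630 CPM in H2afy_KO pools 1 to 4, against 9021, 9028, 7740 and 7521 CPM in H2afy_WT pools 1 to 4. On average H2afy_KO had 6967 ± 1078 CPM (SD, n = 4), or 83.7% of the 8327 ± 810 CPM (SD, n = 4) of H2afy_WT. The groups overlapped, since H2afy_KO 1 and 2 lay within the range of the H2afy_WT pools. H2afy_KO 3 and 4, the pools with the largest immunoglobulin shares, were the lowest of the 8. Within H2afy_WT the pools 3 and 4, with the larger immunoglobulin shares, were also below pools 1 and 2. Other pools went the other way. H2afy_KO 1, with the smallest share (0.403%), was below H2afy_KO 2 (10.1%) and H2afy_WT 3 (19.7%). H2afy_WT 4 (13.0%) was below H2afy_WT 3 too. As a share of the counts outside immunoglobulin genes, the mitosis genes took 0.666% to 0.961% in H2afy_KO and 0.904% to 1.07% in H2afy_WT. With the log2 of the immunoglobulin share as a covariate, the log2 fold change was negative in 43 of 45 genes and its median was -0.22.

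**Figure D1:**
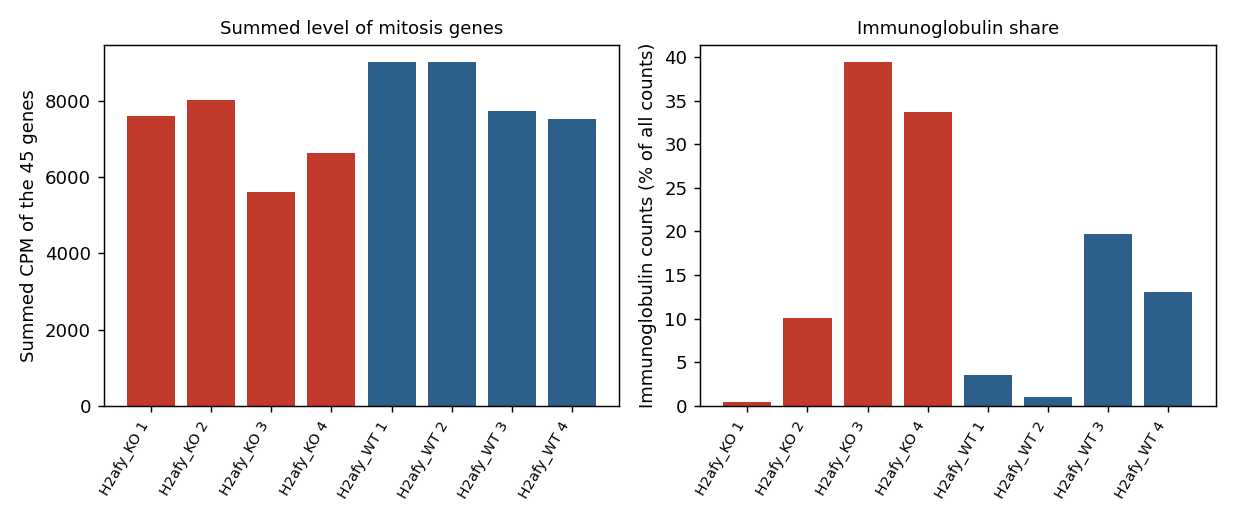
Summed level of the 45 mitosis genes in CPM (left) and immunoglobulin counts as a percentage of all counts (right), 1 bar for each pool, H2afy_KO in red and H2afy_WT in blue. H2afy_KO 3 and 4 have the lowest mitosis sums, 5607 and 6630 CPM, and the largest immunoglobulin shares, 39.4% and 33.7%.

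By gene, 44 of 45 had a negative log2 fold change (H2afy_KO over H2afy_WT), where 49.9% of all genes tested did. The median was -0.28, and that of all genes was 0.00. The edgeR quasi-likelihood test called 0 of the 45 lower and 0 higher at an adjusted p under 0.05, as it called 0.0% of all genes in each direction. Adjusted p-values of the 45 ran from 0.426 to 0.989. At an unadjusted p under 0.05, 10 were lower and 0 higher, against 3.69% and 3.88% of all genes. DESeq2 called 0 in either direction (0.517% of all genes lower, 0.343% higher). The levels of all H2afy_KO pools lay below those of all H2afy_WT pools in 2 genes, Gtse1 and Birc5, or 4.44% of the 45 (2.35% of all genes), and 0 genes showed the reverse (2.18% of all genes).

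Both genotypes were numbered 1 to 4, and pairing the pools by that number is an assumption. Between pools of the same number, 23 of the 45 genes were lower in H2afy_KO in all 4 pairs, where 10.9% of all genes were. The counts of genes lower in H2afy_KO were 41, 32, 43 and 37 of 45 in pairs 1 to 4, where 51.5%, 50.7%, 47.7% and 48.9% of all genes were lower. When edgeR was run with that number as a replicate block it again called 0 lower (0.0802% of all genes) and 0 higher (0.0292%), and 22 were lower (5.74%) and 0 higher (6.23%) at an unadjusted p under 0.05. DESeq2 with that block called 7 lower (1.84% of all genes) and 0 higher (1.95%): Cdk1, Dlgap5, Ccnb1, Gtse1, Hjurp, Cdc25b and Kif2c, with adjusted p-values of 0.00133, 0.00314, 0.00818, 0.0188, 0.0266, 0.0277 and 0.0389.

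H2afy_KO 3 was the lowest of the 8 pools in 39 of the 45 genes, and H2afy_WT 1 or H2afy_WT 2 the highest in 15 and 19. Without H2afy_KO 3 the median log2 fold change was -0.16 with 40 genes negative. Without H2afy_KO 3 and 4 it was -0.10 with 31 genes negative (50.2% of all genes). By role, the medians without these 2 pools were 0.02 for the mitotic kinases and 0.13 for cytokinesis, which were -0.21 and -0.05 with all pools, and -0.17 to -0.02 for the other 6 roles. The count of 10 genes at an unadjusted p under 0.05 was 1 without H2afy_KO 3, 4 without H2afy_KO 4, 1 without H2afy_WT 1, 3 without H2afy_WT 2 and 18 without H2afy_KO 2. The share of all genes at that level is not given for these fits. A change in these genes therefore cannot be told apart from a change in the whole fit. Levels of these genes varied less among H2afy_WT pools (median coefficient of variation 12.7%) than among H2afy_KO pools (18.1%), and the medians over all genes were 21.2% and 21.1%.

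**Figure D2:**
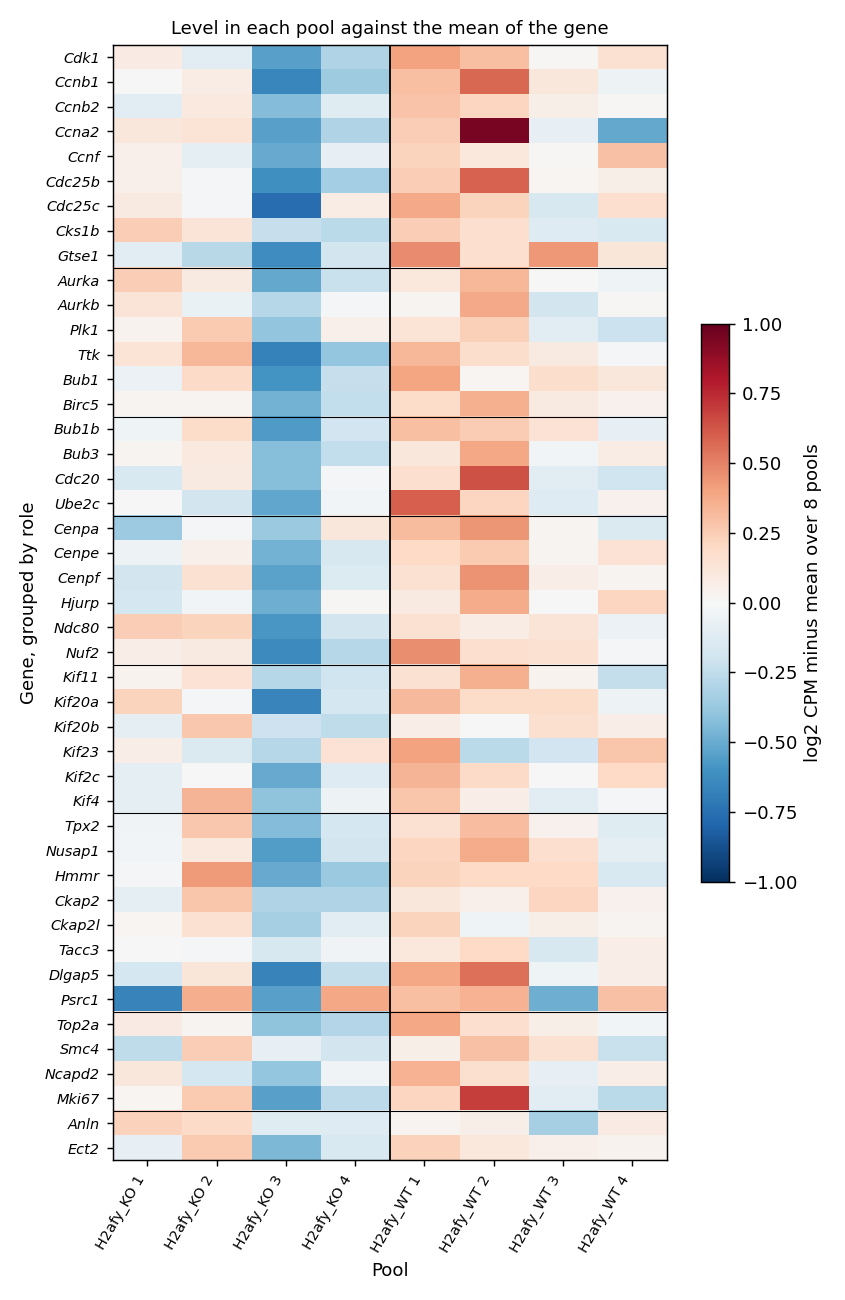
Level of each of the 45 genes (rows, grouped by role) in each pool (columns) as log2 CPM minus the mean of the gene over the 8 pools. The column of H2afy_KO 3 is blue throughout, the lowest of the 8 in 39 genes, and H2afy_WT 1 and 2 are mostly red.

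By role, the lowest median belonged to the cyclin and Cdk1 control genes. All 9 of them were negative, with a median of -0.37, and 8 of them were lower in all 4 pairs. Without H2afy_KO 3 and 4 their median was -0.17, near the -0.16 of the centromere and kinetochore genes. Gtse1, a microtubule-binding protein of G2 that restrains p53 (chromosome 15, 85690137 to 85707002, NCBIM37), had 32.0, 28.5, 22.4 and 30.4 CPM in H2afy_KO pools 1 to 4, against 47.8, 38.8, 46.5 and 37.5 CPM in H2afy_WT pools 1 to 4. Every H2afy_KO pool was below every H2afy_WT pool. Its log2 fold change was -0.59 (SE 0.16; edgeR adjusted p = 0.426), which puts H2afy_KO at 66.4% of H2afy_WT, and it was -0.49 without H2afy_KO 3 and 4.

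Cdk1, the kinase that drives entry into mitosis (chromosome 10, 68799383 to 68815686), had 187, 164, 121 and 143 CPM in H2afy_KO pools 1 to 4, against 233, 217, 178 and 196 CPM in H2afy_WT pools 1 to 4. Only H2afy_KO 1 reached into the H2afy_WT range. The log2 fold change was -0.42 (SE 0.15; edgeR adjusted p = 0.537), and -0.22 without H2afy_KO 3 and 4. Ccnb1, which encodes cyclin B1, the partner of Cdk1 (chromosome 13, 101548605 to 101556525), had 157, 165, 99.6 and 123 CPM in H2afy_KO pools 1 to 4, against 194, 234, 169 and 152 CPM in H2afy_WT pools 1 to 4. H2afy_KO 1 and 2 lay between the H2afy_WT pools, and H2afy_KO 3 was far below (log2 fold change -0.46, SE 0.19; edgeR adjusted p = 0.610). Cyclin B1 has near-identical copies elsewhere in NCBIM37, of 97.6% to 99.2% identity over at least 1505 bases. The 2 annotated ones, Gm12856 and Gm5593, held 31 and 2 counts over all pools beside 33288 for Ccnb1, so how the counter treated shared reads bears on this value.

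Cdc25b, a phosphatase that activates Cdk1, had 49.8, 47.7, 31.5 and 38.1 CPM in H2afy_KO pools 1 to 4, against 57.1, 72.3, 48.8 and 50.2 CPM in H2afy_WT pools 1 to 4. The groups touched only at H2afy_KO 1 (log2 fold change -0.45, SE 0.18; edgeR adjusted p = 0.610). The other members of this role spread from -0.37 to -0.06. Ccna2, the cyclin of S phase and G2, was at -0.37 with a wide SE of 0.29. It was at -0.04 without H2afy_WT 2, its highest pool, and -0.12 without H2afy_KO 3 and 4. It shares 14.6% of its exon bases with Exosc9 on the opposite strand, from which these counts cannot separate it. Ccnf, an F-box protein of G2, was at -0.31 (SE 0.14), Ccnb2, the second B-type cyclin, at -0.28 (SE 0.14), and the phosphatase gene Cdc25c at -0.27 (SE 0.21). Cks1b, a small subunit that binds Cdk1, was nearly level at -0.06 (SE 0.16) and has a copy of 95.2% identity. Cks1b turned above 0 without H2afy_KO 3, H2afy_KO 4 or H2afy_WT 1 (to at most 0.02). Without both H2afy_KO 3 and 4 it was at 0.15.

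**Figure D3:**
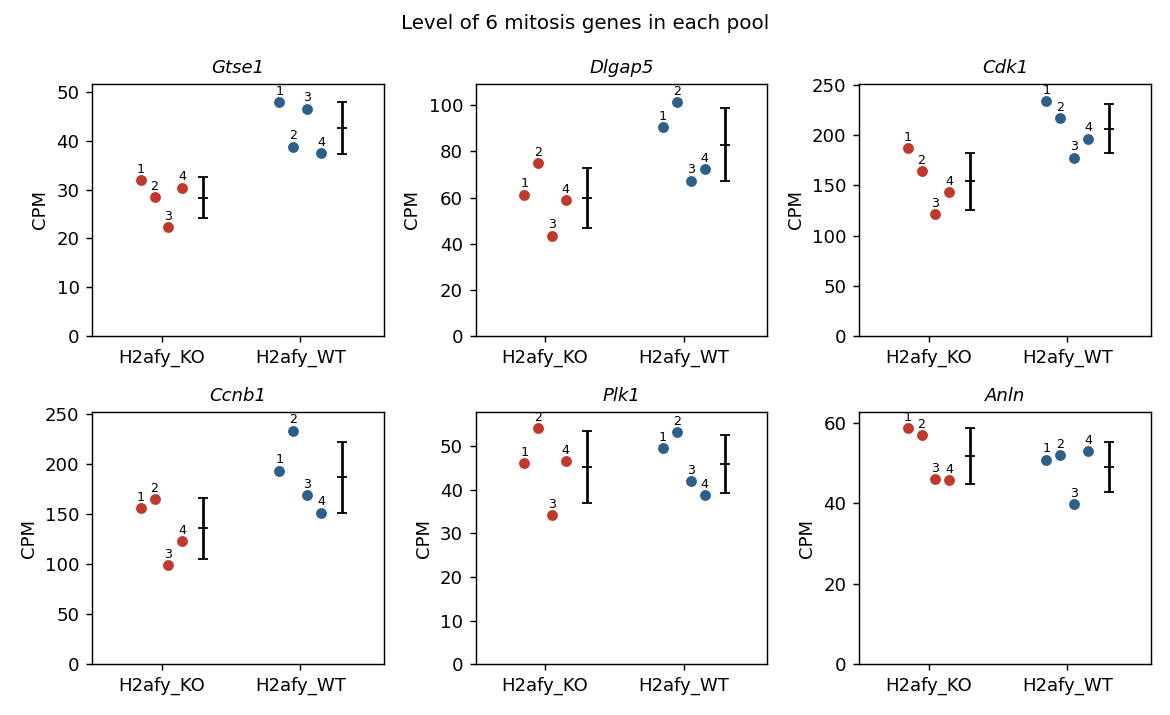
CPM of 6 genes in each pool, numbered by replicate, with the mean and SD (n = 4) beside each group. Gtse1 is separated between genotypes, Dlgap5, Cdk1 and Ccnb1 overlap in 1 or more pools, and the groups of Plk1 and Anln overlap widely.

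Among the mitotic kinases and survivin all 6 genes were negative, with a median of -0.21 and 1 lower in all 4 pairs. That gene was Birc5, which encodes survivin, the partner of Aurora B on centromeres. It had 162, 163, 115 and 135 CPM in H2afy_KO pools 1 to 4, against 181, 204, 170 and 164 CPM in H2afy_WT pools 1 to 4, with no overlap, although H2afy_KO 2 and H2afy_WT 4 differed by little (log2 fold change -0.32, SE 0.14; edgeR adjusted p = 0.635). Bub1, a checkpoint kinase, had 119, 142, 82.1 and 106 CPM in H2afy_KO and 163, 126, 140 and 134 CPM in H2afy_WT, so H2afy_KO 2 exceeded 3 of the H2afy_WT pools (log2 fold change -0.33, SE 0.17). Plk1, the Polo-like kinase of spindle assembly (chromosome 7, 129302951 to 129313389), had 46.1, 54.0, 34.2 and 46.6 CPM in H2afy_KO and 49.5, 53.1, 42.0 and 38.8 CPM in H2afy_WT. Its highest and its lowest value were both in H2afy_KO pools, and the log2 fold change was -0.02 (SE 0.17), turning to 0.10 without H2afy_KO 3. Ttk, Aurka and Aurkb, the other kinases, were at -0.25 (SE 0.21), -0.18 (SE 0.17) and -0.13 (SE 0.15).

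The 4 checkpoint and anaphase-promoting complex genes were close together, from -0.38 to -0.27. Ube2c, the ubiquitin-conjugating enzyme that works with the anaphase-promoting complex, had 59.7, 52.5, 41.8 and 58.9 CPM in H2afy_KO pools 1 to 4, against 90.6, 69.5, 54.8 and 61.6 CPM in H2afy_WT pools 1 to 4. H2afy_WT 3 lay among the H2afy_KO pools, and 22.8% of the exon bases lie opposite Tnnc2, which held 3 counts over all pools (log2 fold change -0.38, SE 0.18; edgeR adjusted p = 0.674). Bub1b, which encodes the checkpoint protein BubR1, had 235, 276, 164 and 212 CPM in H2afy_KO and 300, 289, 268 and 229 CPM in H2afy_WT, overlapping in H2afy_KO 1 and 2 (log2 fold change -0.29, SE 0.17). Cdc20, the activator of the complex at anaphase, and Bub3, a partner of BubR1, were at -0.28 (SE 0.21) and -0.27 (SE 0.15).

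At the centromere and kinetochore all 6 genes were negative (median -0.33), with 4 lower in all 4 pairs. Hjurp, the chaperone that loads the centromeric histone, had 287, 319, 231 and 327 CPM in H2afy_KO pools 1 to 4, against 345, 420, 324 and 376 CPM in H2afy_WT pools 1 to 4. H2afy_KO 4 was just above the lowest H2afy_WT pool (log2 fold change -0.33, SE 0.15; edgeR adjusted p = 0.637). That histone itself, Cenpa, was at -0.33 (SE 0.17). Cenpe, a kinetochore motor, had 145, 155, 108 and 135 CPM in H2afy_KO and 172, 180, 153 and 166 CPM in H2afy_WT, and the groups overlapped by 1 pool (log2 fold change -0.30, SE 0.13). Nuf2 and Ndc80 are subunits of a single complex that grips microtubules. Nuf2 was at -0.36 (SE 0.17), whereas Ndc80 was at -0.11 (SE 0.17) and lower in only 2 of the 4 pairs. Ndc80 was at 0.03 without H2afy_KO 3 and at 0.16 without H2afy_KO 3 and 4. Cenpf was at -0.34 (SE 0.16).

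The 6 kinesins ranged from -0.36 to -0.09, with a median of -0.14. Kif2c, which depolymerises microtubules at centromeres, had 83.1, 89.2, 62.6 and 81.0 CPM in H2afy_KO pools 1 to 4, against 113, 101, 88.6 and 102 CPM in H2afy_WT pools 1 to 4. Only H2afy_KO 2 reached the lowest H2afy_WT pool (log2 fold change -0.36, SE 0.14; edgeR adjusted p = 0.571). Kif20a, a motor of cytokinesis, had 220, 186, 119 and 167 CPM in H2afy_KO and 235, 214, 214 and 182 CPM in H2afy_WT (log2 fold change -0.29, SE 0.18). Its H2afy_KO pools spanned a wide range, and 32.3% of its exon bases lie opposite Cdc23, from which these counts cannot separate it. Cdc23 held 37187 counts over all pools beside 39693 for Kif20a. The bipolar spindle motor Kif11 was at -0.16 (SE 0.15), and Kif20b, Kif23 and the chromokinesin Kif4 at -0.13 (SE 0.14), -0.13 (SE 0.17) and -0.09 (SE 0.16). Kif4 was at 0.02 without H2afy_KO 3 and at 0.09 without H2afy_KO 3 and 4. It shares 15.1% of its exon bases with Pdzd11 on the opposite strand. Pdzd11 held 12322 counts over all pools beside 13199 for Kif4, and these counts cannot separate the 2 genes there.

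All 8 spindle microtubule proteins were negative, but their median was -0.19 and only Dlgap5 was below -0.33. Dlgap5, which encodes HURP, a protein of kinetochore microtubules (chromosome 14, 48007454 to 48038082), had 61.3, 75.1, 43.6 and 58.8 CPM in H2afy_KO pools 1 to 4, against 90.6, 101, 67.3 and 72.5 CPM in H2afy_WT pools 1 to 4. H2afy_KO 2 was above the 2 lower H2afy_WT pools, and the other 3 were below all of them (log2 fold change -0.47, SE 0.18; edgeR adjusted p = 0.585). Nusap1, which bundles spindle microtubules, had 328, 356, 226 and 294 CPM in H2afy_KO and 388, 432, 374 and 314 CPM in H2afy_WT (log2 fold change -0.32, SE 0.16). Tpx2, the activator of Aurora A on the spindle, was at -0.18 (SE 0.16), and its partners of the spindle Hmmr, Ckap2, Psrc1, Ckap2l and Tacc3 lay between -0.20 and -0.11. Psrc1 was the lowest gene of the 45, at 13.5 ± 5.10 and 15.3 ± 3.67 CPM (SD, n = 4 each), and its SE was 0.29.

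Of the chromosome structure genes all 4 were negative (median -0.26). Top2a, the topoisomerase that untangles sister chromatids, had 1569, 1512, 1126 and 1210 CPM in H2afy_KO pools 1 to 4, against 1942, 1668, 1546 and 1458 CPM in H2afy_WT pools 1 to 4. H2afy_KO 1 and 2 overlapped with H2afy_WT 3 and 4 (log2 fold change -0.29, SE 0.16; edgeR adjusted p = 0.707). Mki67, the proliferation antigen that coats mitotic chromosomes, had 303, 357, 204 and 249 CPM in H2afy_KO and 346, 481, 276 and 248 CPM in H2afy_WT. H2afy_WT 4 was as low as H2afy_KO 4, and the log2 fold change of -0.28 had an SE of 0.23. It was -0.02 without H2afy_KO 3 and 4. The condensin genes Ncapd2 and Smc4 were at -0.24 (SE 0.15) and -0.14 (SE 0.16), and Ncapd2 had 311, 254, 219 and 280 CPM in H2afy_KO and 366, 321, 271 and 300 CPM in H2afy_WT, with overlap.

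The 2 cytokinesis genes went in opposite directions, both by less than the SD among H2afy_KO pools. For Ect2, with means of 137 ± 27.9 CPM in H2afy_KO and 156 ± 9.83 CPM in H2afy_WT, the difference exceeded the SD among H2afy_WT pools. Anln, which encodes the ring protein anillin (chromosome 9, 22135658 to 22193650), had 58.7, 57.1, 46.0 and 45.8 CPM in H2afy_KO pools 1 to 4, against 50.9, 52.1, 39.8 and 53.1 CPM in H2afy_WT pools 1 to 4. It was the 1 gene with a positive log2 fold change (0.08, SE 0.15), and this was 0.00 without H2afy_WT 3. Ect2, which activates the small GTPase of the contractile ring, had 137, 174, 106 and 131 CPM in H2afy_KO and 170, 156, 150 and 149 CPM in H2afy_WT (log2 fold change -0.19, SE 0.15; edgeR adjusted p = 0.806). H2afy_KO 2 was its highest pool, and without H2afy_KO 3 and 4 its log2 fold change was 0.00.

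**Figure D4:**
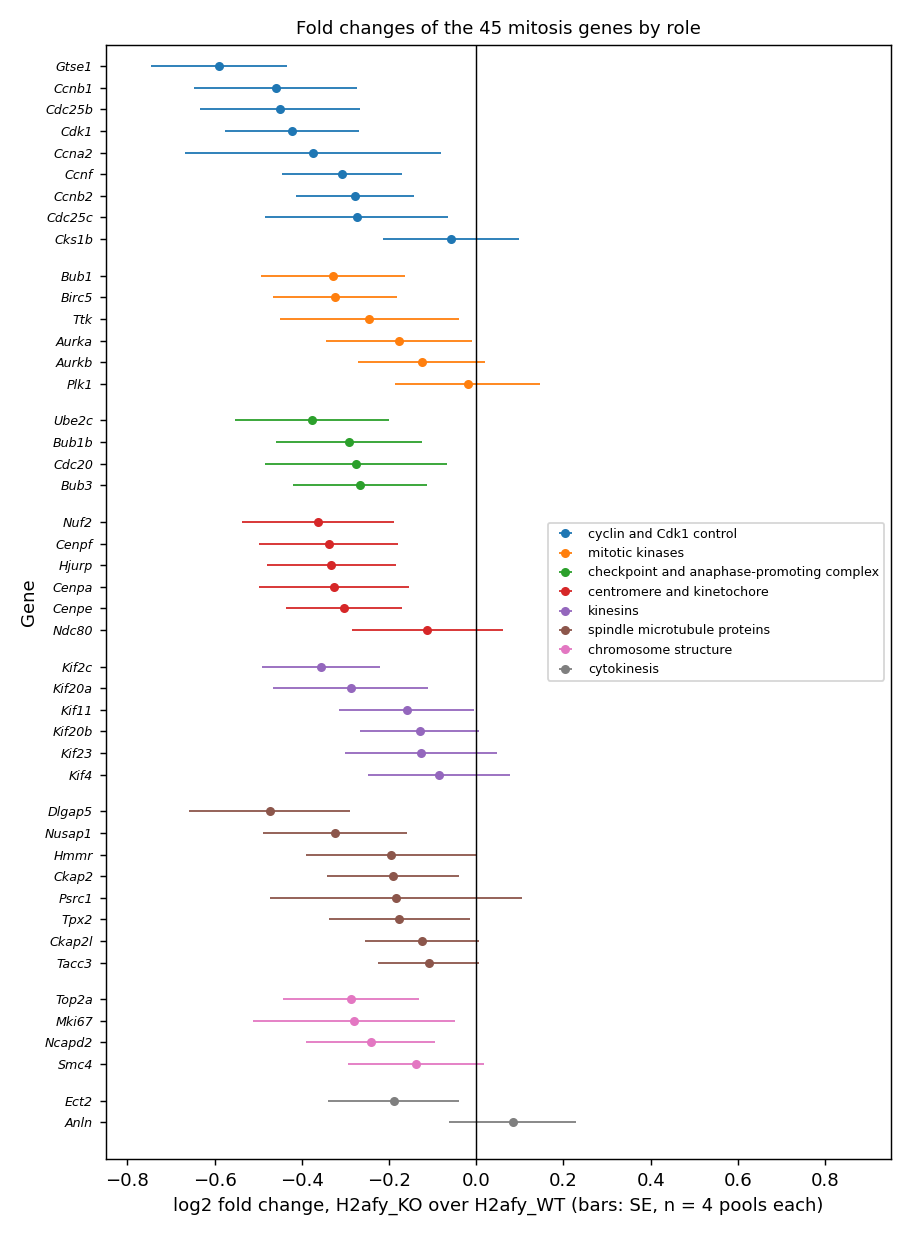
Log2 fold change of each gene, H2afy_KO over H2afy_WT, with its SE (n = 4 pools each), coloured by role. Points run from -0.59 (Gtse1) to 0.08 (Anln), and all but Anln are left of 0.

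Per kilobase of annotated exons, the level of these genes in H2afy_WT ranged from 5.07 (Psrc1) to 182 CPM per kilobase (Top2a), with a median of 34.6. Bub3 at 173 and Cks1b at 145 followed Top2a, and Ccnb2 at 99.9 was above its relative Ccnb1 at 44.4. Top2a, Bub3, Cks1b, Ccnb2, Nusap1, Smc4, Ncapd2 and Bub1b took the 8 highest places in the same order in H2afy_KO. Cdk1 was at place 9 in H2afy_WT and 12 in H2afy_KO, and Gtse1 at 37 and 40. Neighbours in this order were often closer than their spread: Cdk1 and Kif20a, at 59.8 and 54.2 CPM per kilobase in H2afy_WT, are an example.

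The other genes of the pathway were taken from lists by function. Of 61 other mitosis genes 55 were negative, with a median log2 fold change of -0.19, and 0 passed the edgeR test in either direction. At an unadjusted p under 0.05, 6 were lower and 0 higher, where 3.69% and 3.88% of all genes were. The smallest p belonged to Cenpn, which binds the centromeric nucleosome: it had 71.5, 87.8, 56.9 and 73.2 CPM in H2afy_KO pools 1 to 4, against 129, 104, 98.9 and 85.6 CPM in H2afy_WT pools 1 to 4 (log2 fold change -0.53, SE 0.16; edgeR adjusted p = 0.473). H2afy_KO 2 lay just above the lowest H2afy_WT pool. A list of the core subunits of the anaphase-promoting complex and 1 activator, Fzr1, stood at 7 negative of 13 with a median of 0.00, and Anapc11, a core subunit, had the smallest p, from 106, 101, 81.2 and 80.4 CPM in H2afy_KO and 88.8, 73.4, 77.6 and 75.9 CPM in H2afy_WT (log2 fold change 0.22, SE 0.13; edgeR adjusted p = 0.729).

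S phase genes had 28 of 36 negative and a median of -0.15, with 0 past the edgeR test. At an unadjusted p under 0.05, 2 were lower and 0 higher, near the 3.69% and 3.88% of all genes. Mcm10, which helps to start replication forks, had 107, 128, 88.3 and 97.2 CPM in H2afy_KO and 138, 153, 129 and 126 CPM in H2afy_WT, and was at -0.38 (SE 0.14; edgeR adjusted p = 0.527). The summed S phase level was 9991, 8833, 7098 and 7381 CPM in H2afy_KO pools 1 to 4, against 10520, 9960, 8611 and 8403 CPM in H2afy_WT pools 1 to 4, so here H2afy_KO 1 was among the high pools. The ratio of the summed mitosis level to the summed S phase level was 0.762, 0.907, 0.790 and 0.898 in H2afy_KO, and 0.857, 0.906, 0.899 and 0.895 in H2afy_WT. The 2 lowest ratios were those of H2afy_KO 1 and 3, and H2afy_KO 2 had the highest. Without H2afy_KO 3 and 4 the S phase median was 0.04 and that of the other mitosis genes -0.02.

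In the list of repressor and activator complexes of cell cycle genes 14 of 21 were negative (median -0.07), and 0 passed the edgeR test. Foxm1 and Mybl2, which encode activators of G2 and M phase genes, were at -0.20 (SE 0.29) and -0.46 (SE 0.29), and E2f2 had the smallest p, from 32.8, 32.8, 34.5 and 42.9 CPM in H2afy_KO and 50.9, 75.1, 36.7 and 39.9 CPM in H2afy_WT (log2 fold change -0.50, SE 0.22; edgeR adjusted p = 0.633). Of the 9 G1 cyclins and kinases 5 were negative (median -0.09). Ccnd3, the cyclin of early B-lineage proliferation, had 36.4, 53.9, 31.8 and 61.8 CPM in H2afy_KO pools 1 to 4, against 98.1, 104, 53.3 and 44.98 CPM in H2afy_WT pools 1 to 4, with wide overlap (log2 fold change -0.71, SE 0.32; edgeR adjusted p = 0.672). Among 5 tested Cdk inhibitors the median was 0.06, and Cdkn2c, an inhibitor of the G1 kinases, was at 0.59 (SE 0.25; edgeR adjusted p = 0.629), from 10.2, 8.52, 19.2 and 12.5 CPM in H2afy_KO and 9.05, 8.12, 8.08 and 8.30 CPM in H2afy_WT. Its highest level was in H2afy_KO 3, the pool lowest in mitosis genes and highest in immunoglobulin share (39.4%). A link to either was not tested.

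**Figure D5:**
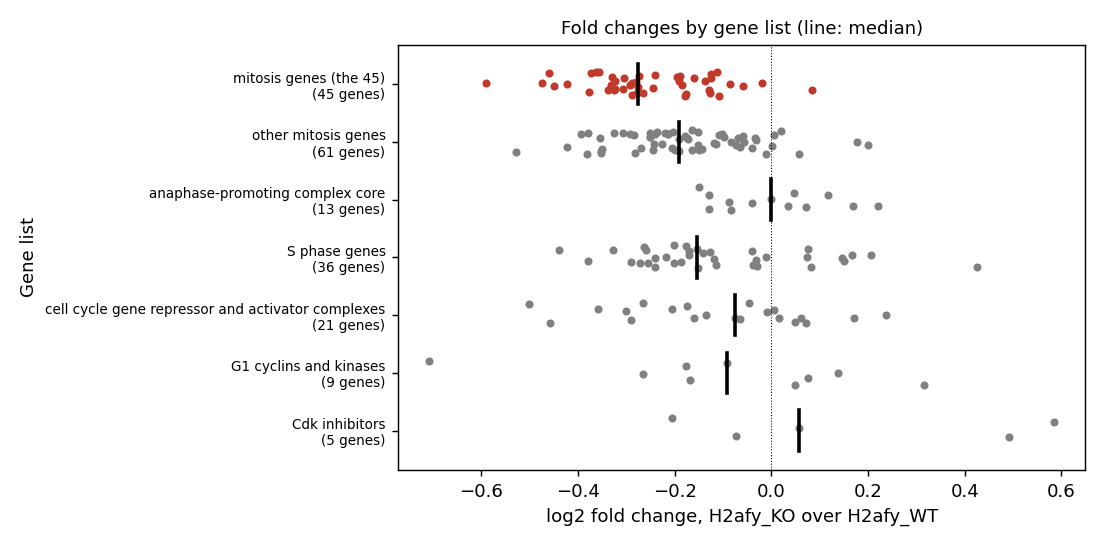
Log2 fold change of each gene, H2afy_KO over H2afy_WT, in 7 lists, with the median as a black line. The 45 mitosis genes (red) have a median of -0.28, the other mitosis genes -0.19, the S phase genes -0.15 and the list of the anaphase-promoting complex (core subunits and Fzr1) 0.00.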

How the data were processed

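Read counts per Ensembl gene, not normalized, were deposited by the authors for 8 pools, each of RNA from 5000 to 15000 sorted cells. Per the labels' protocols, double-stranded cDNA was made with the SMARTer Ultra Low RNA kit and read from 1 end over 50 bases; this kit marks no strand. The submitters' processing notes name HISAT2 2.0.6 and mm9. Gene counter and annotation: not given in the sources used here. GENCODE M1 (NCBIM37, the same assembly) named 37205 of 37991 IDs, and 4 of 242 list symbols matched through a synonym. The closest of the 28 pairs of pools differed by a chi-square of 92.2 per degree of freedom, so no pool repeated another.

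Genes were tested with edgeR 4.0.16 (quasi-likelihood, robust, TMM, filterByExpr with a minimum count of 10) in R 4.3.3, with Benjamini-Hochberg adjustment over all 13722 genes and a threshold of 0.05. All 45 mitosis genes passed the filter. No label says that pools came from separate mice, so each p measures spread among pools only. CPM uses the TMM-scaled library size. Alternatives were DESeq2 1.42.0, other factors and filters, a replicate block and pools left out. Immunoglobulin genes (488 genes) were also left out, or the log2 of their share of counts served as a covariate. Same-numbered pools deviated from their group means together (r = 0.19, 0.19, 0.36 and 0.41 across genes), all over 0.1. The numbers were therefore read as pairing the pools, although the labels do not say what they mark. H2afy_KO 1 had a higher r with H2afy_WT 2 (0.52), and H2afy_KO 3 with H2afy_WT 4 (0.45). H2afy_KO 2 and 4 had their highest r with the same number. The pairing thus remains an assumption. Copies of at least 95% identity over 300 bases were sought with minimap2. The test scripts were tested on simulated data.

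Genes given with values in every pool were the 2 with the smallest p in each role, 5 core genes (Cdk1, Ccnb1, Plk1, Top2a, Mki67) and any called in a fit with or without the block, 20 in all; fold changes of the other 25 are given by role. Named too was the gene with the smallest p in each other pathway list. Foxm1, Mybl2 and the cell type markers named singly were added after their values were seen. The genes and lists were chosen with earlier results of these data known.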

Additional observations from a re-analysis of the deposited data

Results flagged for a closer look

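Among the 4 H2afy_WT pools, Anln in pool 3 stood far from the rest: it had 39.8 CPM, and the other 3 had 50.9 to 53.1 CPM. The gap took 0.837 of the range of the group, above Dixon's 95% critical value for 4 samples. This was 1 of 44 groups of 4 pools examined (the 20 genes with values in every pool, the summed level and the immunoglobulin share, in each genotype), and chance gives about 1 such group in 20. Without this pool the log2 fold change of Anln was 0.00.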

How the results depend on the processing

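Over 18 alternatives, the median log2 fold change of the 45 genes stayed negative (-0.35 to -0.16 with each pool left out, -0.10 without H2afy_KO 3 and 4, -0.22 with the immunoglobulin share as covariate and -0.26 without immunoglobulin genes), and 31 to 45 genes were negative. The count called lower was 0 except for 7 under DESeq2 with the replicate block. Over all genes, 0 calls became 118 with DESeq2, 15 with the replicate block, 520 with DESeq2 and the block, 16 with no filter, 2 with a filter of 5 CPM in 4 samples, 5 with upper-quartile factors, 5 without immunoglobulin genes and 3 with the covariate, and 0 to 1 with each pool left out. Of 360 fold changes of the 20 named genes, 346 kept their direction and side of the threshold and 7 passed it, all under DESeq2 with the block. Another 7 turned direction: Plk1 was at 0.018 with the covariate and 0.14 without H2afy_KO 3 and 4; it ranged from -0.12 to 0.10 with each pool left out, and was above 0 without H2afy_KO 3 (0.10), H2afy_WT 1 (0.013) or H2afy_WT 2 (0.055). Ect2, at -0.19 with all pools, was at 0.0031 without H2afy_KO 3 and 4, and Anln at -0.0027 without H2afy_WT 3. The cause was not tested. In the other lists, edgeR with the replicate block called 1 gene, Rag1. With 4 pools a group, the median SE of the 45 log2 fold changes was 0.16.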
